A study of Mus musculus with 24 samples.

Results

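Sodium pyruvate and sodium lactate, each at 20 mM, were compared by RNA sequencing of mouse CD8 T cells, the lymphocytes that kill infected and malignant cells. The libraries entering the comparison were chosen by their labels: 3 libraries of cells given sodium pyruvate and 3 of cells given lactate, 6 of the 24 libraries of the series. The genes described were those that passed a filter on low counts, 14749 of the 55401 genes counted. All cells carried the C57BL/6J genotype, came from spleen and lymph nodes, were enriched with magnetic microbeads and were activated for 3 days in RPMI-1640 with anti-CD28 and IL-2. The salts were present during the last day, from day 2 to day 3. Another group of 3 libraries received 20 mM sodium chloride (NaCl) over the same day and gives a level with the sodium but without either carbon source. The treatment text names lactate without its salt and the sample labels call it Na Lactate. A further group, lactate with Oxyrase, entered the model only to help estimate the spread between libraries. The labels give neither age nor sex, and they do not say whether replicates were separate animals or cultures, so p-values measure the spread between these libraries, which may be technical.

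Pyruvate and lactate are the ketone and hydroxyl forms of the same short carboxylic acid. Lactate dehydrogenase interconverts them: turning pyruvate into lactate uses NADH, and turning lactate into pyruvate makes NADH. Both cross the plasma membrane through monocarboxylate transporters such as MCT1 (Slc16a1) and MCT4 (Slc16a3), and pyruvate enters the mitochondrion through the carrier made of Mpc1 and Mpc2. Activated T cells take up much glucose and release lactate, and they live among high lactate in tumours and inflamed tissue. The comparison asks which transcripts differ between cells given pyruvate and cells given lactate.

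The 6 libraries held 28.4 to 39.6 M counts each, so that 3 counts correspond to 0.0757 to 0.106 CPM, the count scaled to a common library total. The deposited values appear to have been adjusted for the replicate number by a step that no label states, so that the spread within groups, and with it the p-values, may be too small: of 460 genes with a value above 1 that is not whole, 448 were at 0 throughout 1 replicate number. The first principal component of the 6 libraries carried 40.6% of the variance and placed the pyruvate libraries (-24.5 to -22.2) apart from the lactate libraries (22.3 to 25.6). Summed CPM of 19 CD8 T lineage markers lay between 6997 and 7076 with pyruvate and between 6935 and 6948 with lactate. Some sums of markers of other cells differed between the groups, those of B cells, CD4 T cells and NK cells each carried mostly by 1 gene. The 10 B cell markers summed to 149.8 to 154.5 CPM with pyruvate and 193.2 to 201 with lactate. Of these sums Ighm made 144.5 to 149.2 and 186 to 193.6, while Ms4a1 stayed at or under 0.381. Ighd was also lower with pyruvate (1.37 to 1.73 against 2.35 to 3.02), a call lost without pyruvate replicate 2 or lactate replicate 3. The 6 CD4 T cell and regulatory T cell markers summed to 331.8 to 353.8 and 426.5 to 487.5, of which Ctla4 made 305 to 326 and 391 to 451. Cd4 itself was at 0.304 to 0.485 against 0.304 to 0.545 and Foxp3 at 2.33 to 3.76 against 3.41 to 4.46, both overlapping. Ikzf2 also overlapped (11.2 to 14.6 against 14.1 to 14.8). Zbtb7b, like Ctla4, was lower with pyruvate (9.26 to 9.95 against 15.6 to 16.5). Cd40lg was higher with pyruvate (1.43 to 2.38 against 0.876 to 0.939), a call lost without pyruvate replicate 2 (adjusted p = 0.0659). The 9 NK cell markers, several of which CD8 T cells also use, summed to 318.6 to 343.9 CPM with pyruvate and 268.3 to 290.5 with lactate, of which Nkg7 made 283 to 304 and 241 to 268, with Ncr1 at 0. The 14 myeloid and dendritic markers summed to 4.015 to 5.546 CPM with pyruvate and 2.802 to 2.918 with lactate, with Adgre1, Clec9a and Siglech at 0. Of these sums Cd68 made 2.61 to 3.605 and 1.391 to 1.751, while Mpeg1 overlapped (0.459 to 0.582 against 0.457 to 0.665). Xcr1, the other member called higher, stayed at or under 0.402, and its call was lost when any 1 library was left out. Erythroid and platelet markers stayed at or under 0.2802. The part of these cells in the results was not tested. In bulk RNA, fewer cells of a type and less RNA per cell cannot be told apart.

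Pyruvate and lactate left clearly different transcriptomes. In edgeR's quasi-likelihood test with Benjamini-Hochberg adjustment, 3534 of the 14749 genes (24.0%) differed at an adjusted p under 0.05, of which 1922 (13.0%) were higher and 1612 (10.9%) were lower with pyruvate. The higher genes had the longer tail: 255 of them were at least 2-fold higher, against 73 lower by as much. Most of the transcriptome moved little. For 9974 genes the whole 95% interval of the difference lay within a 1.5-fold change, and 2517 of the genes that differed were among these. The libraries of the 2 groups did not overlap for 39.6% of all genes tested. Shares called within gene lists, given below, are to be read beside the 13.0% higher and 10.9% lower.

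**Figure D1:**
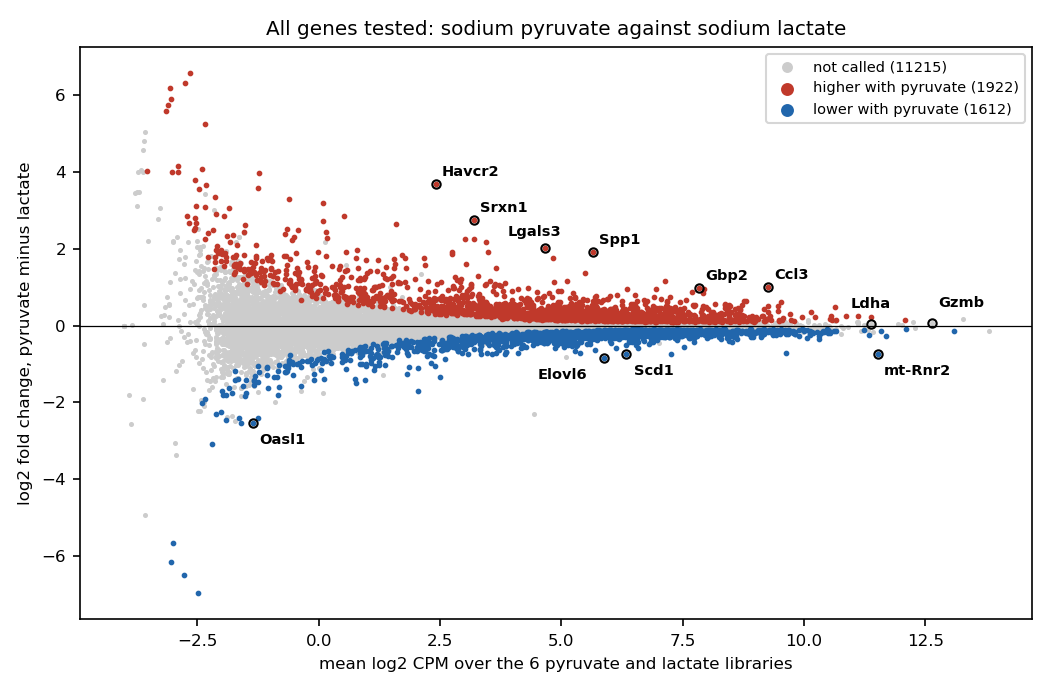
Difference between pyruvate and lactate for each of the 14749 genes tested (vertical axis, log2 fold change) against its mean level (horizontal axis, log2 CPM), with red genes higher and blue genes lower at an adjusted p under 0.05. Havcr2 and Srxn1 stand far above genes of like level, Ldha and Gzmb lie on the zero line among the most abundant transcripts, and fitted values at the far left rest on few counts.

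The largest log2 fold change among the genes chosen for description whatever their result was that of Havcr2, which encodes the inhibitory receptor TIM-3 (chromosome 11, 46454931 to 46481255 in the mm10 assembly). Its CPM was 14.7, 21.3 and 20.2 with pyruvate, 1.51, 1.77 and 1.14 with lactate and 1.93, 0.731 and 1.35 with NaCl. Every pyruvate library was far above the rest, while lactate and NaCl overlapped. The log2 fold change of pyruvate over lactate was 3.68 ± 0.19 (standard error, SE; adjusted p = 1.58e-09), which is 12.8-fold.

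Among genes whose log2 CPM averaged 3 or more, Srxn1 rose furthest. It encodes sulfiredoxin, which restores over-oxidised peroxiredoxins. Its CPM was 18.9, 27.6 and 24.3 with pyruvate, 3.68, 3.03 and 3.86 with lactate and 5.21, 4.08 and 3.74 with NaCl, a log2 fold change of 2.75 ± 0.14 over lactate (adjusted p = 9.05e-10). Then came Ccl1, Inhba, Ccl9, Lgals3, Il3, Spp1, Penk, Cd36, Arc, Csf2 and Cxcr6, from 4.75-fold for Ccl1 to 2.43-fold for Cxcr6. Inhba encodes a subunit of activin A. Its CPM was 15.0, 19.4 and 18.6 with pyruvate and 2.94, 4.31 and 3.83 with lactate (log2 fold change 2.24 ± 0.17), with NaCl between them at 8.88, 5.91 and 4.97. Lgals3, the carbohydrate-binding galectin-3, stood at 48.6, 51.2 and 52.2 against 12.6, 12.3 and 12.9 CPM and at 17.0, 13.7 and 13.0 with NaCl (log2 fold change 2.01 ± 0.08, adjusted p = 6.15e-11). The immediate-early gene Arc, best known from neurons, gave 18.1, 22.4 and 22.8 against 7.99, 7.23 and 7.10 CPM (log2 fold change 1.51 ± 0.10). In NaCl its values of 12.4, 11.7 and 10.4 lay between those of the 2 salts. Cd36, a fatty acid and lipoprotein receptor, gave 12.8, 15.2 and 14.6 CPM with pyruvate against 4.69, 4.17 and 5.05 with lactate (log2 fold change 1.61 ± 0.10).

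**Figure D2:**
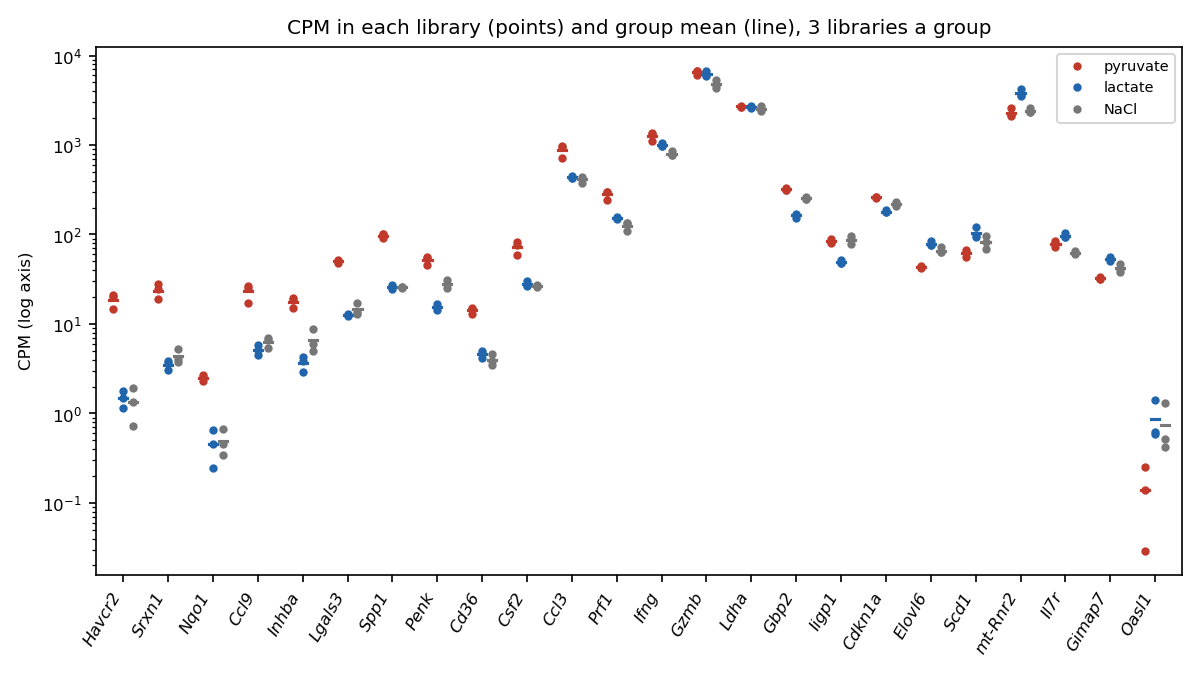
CPM in each library (points, log axis) and group mean (line) for 24 genes with pyruvate, lactate and NaCl, 3 libraries each. Havcr2, Srxn1 and Spp1 are high with pyruvate alone, Gbp2 and Iigp1 are low with lactate, mt-Rnr2 is high with lactate, and Ldha has nearly the same level in all 9 libraries.

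On the lower side the steps were smaller. The 12 genes that fell furthest with pyruvate at that level ranged from Elovl6 (log2 fold change -0.86 ± 0.07) to mt-Rnr1 (-0.70 ± 0.12). Elovl6, which lengthens saturated fatty acids, gave 43.4, 44.6 and 42.6 CPM with pyruvate against 84.0, 75.5 and 77.1 with lactate and 64.1, 62.9 and 71.6 with NaCl (adjusted p = 2.31e-07). Scd1, the desaturase acting on its product, gave 56.5, 66.4 and 63.3 against 119.8, 99.9 and 92.7 CPM (log2 fold change -0.74 ± 0.11). The mitochondrial 16S ribosomal RNA mt-Rnr2 stood at 2109, 2562 and 2177 CPM with pyruvate, 3645, 4249 and 3558 with lactate and 2331, 2361 and 2565 with NaCl. Here lactate alone stood apart, and the log2 fold change was -0.74 ± 0.08 (adjusted p = 3.96e-06). The libraries were made from poly(A)-selected RNA, which captures this ribosomal RNA only in part. Gimap7, a GTPase of lymphocytes, gave 33.9, 31.4 and 31.6 against 55.6, 53.4 and 51.1 CPM (log2 fold change -0.72 ± 0.07), and Zbtb7b, the factor that directs CD4 lineage choice, gave 9.26, 9.95 and 9.95 against 16.5, 16.0 and 15.6 (-0.72 ± 0.09). Slc25a23, a mitochondrial carrier, Lpar2, a lysophosphatidic acid receptor, Kctd17, Mfsd13a, Bmyc and the interferon-induced Ifi27l2a made up the rest, with log2 fold changes of -0.74, -0.73, -0.72, -0.74, -0.72 and -0.74.

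The genes that take up and convert pyruvate and lactate differed mostly by small steps. Of 27 measured genes of pyruvate and lactate handling, 5 were higher and 5 lower with pyruvate, 18.5% each. Over all genes tested 13.0% were higher and 10.9% lower. The median log2 fold change of the list was 0.01 beside 0.00 over all genes tested. For 22 of the 27 the whole 95% interval lay within a 1.5-fold change, beside 67.6% of all genes tested. Ldha, the main lactate dehydrogenase subunit of T cells, gave 2680.2, 2718 and 2689 CPM with pyruvate, 2708, 2562 and 2662 with lactate and 2428, 2544 and 2702 with NaCl. The log2 difference between the salts was 0.03 with a 95% interval of -0.05 to 0.11 (adjusted p = 0.652). Intervals were similarly narrow for the importer Slc16a1 (-0.03 to 0.12), the carrier subunit Mpc1 (-0.07 to 0.13), the pyruvate dehydrogenase subunit Pdha1 (-0.08 to 0.07) and the kinase Pdk1 that switches this enzyme off (-0.19 to 0.04). The lower-abundance subunit Ldhb had an interval of -0.09 to 0.26. These intervals exclude a 1.5-fold difference and do not show that the levels are equal.

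Of the handling genes that did differ, Pcx, which carboxylates pyruvate to oxaloacetate, gave 24.5, 25.5 and 25.4 CPM with pyruvate against 20.4, 15.8 and 18.0 with lactate (log2 fold change 0.48 ± 0.07, adjusted p = 0.000156). The exporter Slc16a3 gave 165, 165 and 164 against 136, 121 and 129.6 CPM (0.36 ± 0.08) and the pyruvate kinase Pkm 2392, 2449 and 2407 against 2072, 1977 and 1999.7 (0.26 ± 0.04). Both transaminases of the list that differed were lower: Got1, the cytosolic aspartate transaminase, gave 102, 98.0 and 102 against 131, 130.4 and 136 CPM (-0.40 ± 0.03, adjusted p = 2.3e-07), and the mitochondrial alanine transaminase Gpt2 33.3, 35.8 and 30.2 against 51.8, 42.0 and 49.1 (-0.52 ± 0.13). Mpc2 was lower by a small step (-0.19 ± 0.06, adjusted p = 0.0295), a call lost without pyruvate replicate 1 or 2 or lactate replicate 1 or 2 (adjusted p up to 0.111). Without lactate replicate 2, 3 genes of the list were lower in place of 5. Hcar1, the lactate receptor, did not pass the filter on low counts.

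**Figure D3:**
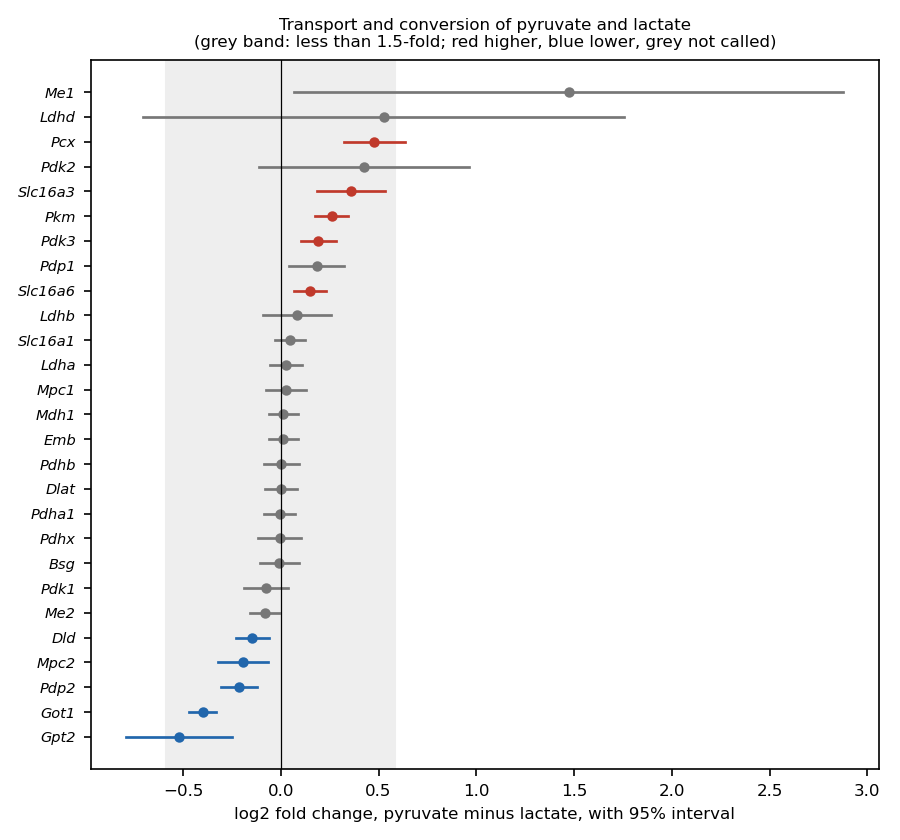
Log2 fold change of pyruvate over lactate (points) with its 95% interval (lines) for the 27 measured genes of pyruvate and lactate transport and conversion. Apart from Me1, Ldhd, Pcx, Pdk2 and Gpt2, each interval lies inside the grey band of a 1.5-fold change, with Ldha and Slc16a1 close to 0.

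NRF2, a transcription factor released from KEAP1 by oxidants and electrophiles, drives genes that make glutathione and reduce peroxides. Of 30 measured genes of this list, 10 (33.3%) were higher and 3 (10.0%) lower with pyruvate. Beside Srxn1, the quinone reductase Nqo1 rose from 0.245, 0.654 and 0.457 CPM with lactate to 2.67, 2.56 and 2.29 with pyruvate (log2 fold change 2.42 ± 0.25, adjusted p = 2.51e-06), with NaCl at 0.662, 0.457 and 0.347. Ftl1, the ferritin light chain, gave 410.0, 386 and 413 against 287, 288 and 301 CPM (0.46 ± 0.04). Gclc, the rate-limiting enzyme of glutathione synthesis, gave 49.9, 55.0 and 54.9 against 40.6, 41.1 and 41.5 (0.37 ± 0.05), and the thioredoxin reductase Txnrd1 261, 270.1 and 262 against 204, 203 and 211 (0.36 ± 0.04). Against NaCl these 5 genes were higher with pyruvate by 0.53 (Ftl1), 0.38 (Gclc), 0.41 (Txnrd1), 2.33 (Nqo1) and 2.43 (Srxn1) on the log2 scale, while lactate gave 0.07, 0.01, 0.05, -0.10 and -0.32. Hmox1, the heme oxygenase often listed with them, did not separate the salts: it gave 7.86, 8.43 and 9.84 CPM with pyruvate and 8.69, 7.77 and 8.42 with lactate (log2 difference 0.07, 95% interval -0.15 to 0.28), both above NaCl at 6.20, 5.94 and 6.90. The glutathione transferase Gstm1 went the other way, with 1.95, 2.00 and 2.36 against 3.47, 2.81 and 3.30 CPM (-0.60 ± 0.15).

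The antioxidant response element, to which NRF2 binds, has the core TGACNNNGC. A search of both strands of the RefSeq promoter windows (250 bases before to 50 after the start of transcription, GRCm38.p6) found it in 4 of the 8 NRF2 genes that rose and have a window, in 10 of 25 measured members with a window, and in 12.4% of all 32851 windows. The window of Srxn1 (chr2:152105274-152105573, plus strand) is shown because this gene had the furthest rise of its list, with the single match of the core, here read on the other strand, in capitals.
Srxn1: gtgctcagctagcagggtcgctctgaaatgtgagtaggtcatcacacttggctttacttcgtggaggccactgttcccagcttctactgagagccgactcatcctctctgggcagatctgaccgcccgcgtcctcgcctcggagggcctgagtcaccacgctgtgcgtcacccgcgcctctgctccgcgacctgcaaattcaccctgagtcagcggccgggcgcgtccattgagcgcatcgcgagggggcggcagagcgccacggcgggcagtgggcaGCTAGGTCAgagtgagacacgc
The match begins 28 bases after the start. A peak of accessible chromatin spans this window, as described with the other peaks. A match of letters is not evidence of binding. Genes can have several windows, so shares of genes and of windows are not on the same footing.

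Cytokines and chemokines rose in large part. Of 21 measured cytokines 11 (52.4%) were higher and 1 lower with pyruvate, and of 11 measured chemokines 6 (54.5%) were higher and 0 lower, beside 13.0% and 10.9% of all genes tested. Spp1, osteopontin, gave 90.2, 102 and 100.0 CPM with pyruvate, 26.1, 24.6 and 27.4 with lactate and 25.6, 25.3 and 25.9 with NaCl (log2 fold change 1.90 ± 0.07, adjusted p = 6.15e-11). The lactate and NaCl values overlap, and all pyruvate values lie far above them. The hematopoietic growth factors moved likewise: Il3 gave 16.1, 23.4 and 26.0 against 5.43, 5.95 and 5.99 CPM (1.90 ± 0.14) and Csf2, GM-CSF, 58.4, 81.6 and 76.3 against 26.4, 30.0 and 27.0 (1.37 ± 0.11). Penk, the precursor of enkephalin peptides, stood at 45.7, 54.5 and 55.6 with pyruvate, 30.9, 28.3 and 25.5 with NaCl and 15.6, 16.5 and 14.2 with lactate, so that the 3 groups did not overlap (1.75 ± 0.09, adjusted p = 1.23e-09). Csf1, the macrophage growth factor, was at 4.07, 4.43 and 4.40 against 1.54, 1.42 and 1.55 CPM (1.52 ± 0.18). Il13 was low in both (1.98, 2.15 and 1.73 against 0.49, 0.573 and 0.609 CPM, 1.80 ± 0.31).

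Ifng, the main effector cytokine of CD8 T cells, differed by a smaller step. It gave 1121, 1374 and 1333 CPM with pyruvate and 970.1, 1053 and 979.5 with lactate (log2 fold change 0.35 ± 0.06, adjusted p = 0.000814). Both salts were above NaCl at 771, 854 and 771, by 0.68 with pyruvate and 0.32 with lactate on the log2 scale. Tnf gave 56.1, 64.4 and 62.5 against 56.1, 53.5 and 50.3 CPM, with an adjusted p of 0.0471 that was lost with upper quartile scaling (0.0575) and without pyruvate replicate 2 or 3 or lactate replicate 2 or 3 (adjusted p up to 0.196). The single cytokine that was lower was Lif (-0.33 ± 0.08), and this call was lost without pyruvate replicate 3 or lactate replicate 1 (adjusted p up to 0.0526). The number of lower cytokines was 0 without lactate replicate 1 and 2 with upper quartile scaling and without pyruvate replicate 1 or lactate replicate 2. Among the chemokines, Ccl1 and Ccl9 led: Ccl9 gave 17.3, 26.9 and 25.5 against 4.52, 5.75 and 5.07 CPM (2.17 ± 0.15) and Ccl1 15.3, 23.4 and 21.4 against 4.10, 3.90 and 4.62 (2.25 ± 0.20). The abundant chemokines Ccl3 and Ccl4 gave 711, 968 and 939.6 against 432, 429 and 447 and 286, 336 and 352 against 195, 175 and 176 (1.00 ± 0.08 and 0.84 ± 0.10), and Xcl1, which attracts cross-presenting dendritic cells, 799, 946 and 989 against 542, 639.9 and 603 (0.62 ± 0.08). In all 6 called chemokines every pyruvate library was above every lactate and NaCl library. The separation from lactate follows largely from the call, since the 2 groups did not overlap for 3441 of all 3534 genes called.

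Of 21 measured genes of the cytotoxic granule, 12 (57.1%) were higher and 2 lower with pyruvate. Prf1, the pore-forming protein perforin, gave 245, 300.0 and 300.5 CPM with pyruvate, 149, 159 and 154 with lactate and 109, 135 and 133 with NaCl (log2 fold change 0.87 ± 0.07, adjusted p = 3.37e-07). Tnfsf10, the death ligand TRAIL, gave 26.8, 28.3 and 28.2 against 12.8, 14.7 and 14.4 (0.99 ± 0.09). Serpinb9, which protects killer cells from their own granzyme B, gave 523, 583 and 565 against 349.6, 381 and 341 (0.64 ± 0.05), and the related Serpinb6b 413, 441 and 424 against 300.0, 319.6 and 278 (0.51 ± 0.05). Gzmc, a granzyme of long-stimulated cells, was at 6.88, 5.82 and 6.86 against 2.52, 4.15 and 3.83 CPM (0.87 ± 0.14). Gzmb itself, among the most abundant transcripts, did not separate the salts. It gave 6134, 6629.8 and 6712 CPM with pyruvate and 6131, 6641 and 5906 with lactate, a log2 difference of 0.06 with a 95% interval of -0.08 to 0.20 (adjusted p = 0.569). With NaCl it was at 4321, 4679 and 5367, below both salts. The number lower was 1 with the 6 libraries alone and without pyruvate replicate 1 or 3 or any of the lactate replicates.

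Genes that respond to antigen receptor signals were mostly higher with pyruvate: 22 of 36 measured (61.1%), with 4 (11.1%) lower. Egr2, an early-response factor that restrains T cell activation, gave 62.3, 68.9 and 71.1 CPM with pyruvate, 41.5, 44.6 and 42.7 with lactate and 48.1, 47.1 and 40.7 with NaCl (log2 fold change 0.65 ± 0.08, adjusted p = 1.62e-05). The feedback inhibitors of the ERK pathway Dusp6, Spry1 and Spry2 rose together. Dusp6 gave 44.1, 48.0 and 48.2 against 27.5, 29.2 and 27.9 CPM (0.73 ± 0.06), Spry1 47.3, 52.5 and 53.2 against 34.8, 34.4 and 35.3 (0.55 ± 0.05) and Spry2 23.2, 24.0 and 24.6 against 15.7, 16.4 and 16.0 (0.58 ± 0.06). The AP-1 partner Batf3 was lower (14.9, 15.8 and 14.8 against 22.4, 20.7 and 23.8 CPM, -0.56 ± 0.08). Against NaCl, 13 members were higher and 4 lower with pyruvate, beside 9.40% and 6.28% of all genes, whereas with lactate 0 were higher and 6 lower, beside 3.61% and 4.12%.

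Beside Havcr2, 10 other inhibitory receptors and ligands of 23 measured were higher with pyruvate (47.8% with Havcr2), and 2 were lower. The PD-1 ligands Cd274 and Pdcd1lg2 gave 89.6, 96.4 and 90.8 against 60.7, 66.1 and 63.0 CPM (log2 fold change 0.54 ± 0.05) and 29.1, 33.0 and 33.9 against 17.9, 19.6 and 19.5 (0.75 ± 0.06). Pdcd1, PD-1 itself, moved by 0.13 ± 0.04 (92.6, 96.4 and 95.7 against 88.2, 80.6 and 91.1 CPM), and its call was lost with upper quartile scaling (0.0573), with the 6 libraries alone (0.052) and without pyruvate replicate 2 or 3 or lactate replicate 2 (adjusted p up to 0.16). Ceacam1, a partner of TIM-3, gave 2.78, 3.52 and 3.05 CPM with pyruvate, 1.19, 1.66 and 1.75 with lactate and 0.662, 0.852 and 0.733 with NaCl (1.01 ± 0.17). The 3 groups were in that order with no overlap. Ctla4 was 1 of the 2 lower members, with 311, 326 and 305 with pyruvate against 451, 422 and 391 with lactate (-0.42 ± 0.05, adjusted p = 3.15e-05), and without pyruvate replicate 2 a single member was lower.

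Among 36 measured transcription factors of T cell fate, 16 (44.4%) were higher and 4 (11.1%) lower with pyruvate. Prdm1, the effector factor BLIMP1, was low in abundance and gave 2.55, 4.28 and 4.23 CPM with pyruvate, 1.58, 1.28 and 1.29 with lactate and 1.32, 1.55 and 1.08 with NaCl (log2 fold change 1.42 ± 0.20, adjusted p = 5.95e-05). Runx1 gave 8.52, 10.1 and 10.4 against 4.76, 4.75 and 4.74 (1.02 ± 0.11) and Eomes, a factor of effector and memory cells that is also an NK cell marker, 34.8, 39.1 and 39.5 against 26.3, 26.5 and 21.7 (0.61 ± 0.08). Klf2, which maintains homing receptors in quiescent cells, gave 5.02, 4.35 and 5.48 against 2.80, 2.54 and 2.08 CPM (1.00 ± 0.19), with NaCl at 5.30, 4.35 and 3.62. Tcf7, the factor TCF1 of memory and stem-like cells, was lower with 120.2, 118 and 120.5 against 143, 142 and 139.5 (-0.24 ± 0.04, adjusted p = 0.000475). Tbx21, T-bet, gave 69.7, 70.8 and 73.8 against 80.3, 79.8 and 76.2, an adjusted p of 0.0757 and a 95% interval of -0.26 to -0.02. It passed the threshold with upper quartile scaling (0.044), without the filter on low counts (0.028) and with the 6 libraries alone (0.0261).

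Surface genes of naive and memory cells and of homing were split, with 13 of 28 (46.4%) higher and 5 (17.9%) lower. Cxcr6 and Gpr183, receptors for a tissue chemokine and for oxysterols, gave 15.6, 14.9 and 14.3 against 7.07, 5.51 and 5.99 and 17.5, 17.2 and 19.4 against 8.30, 8.40 and 8.63 CPM (log2 fold changes 1.28 ± 0.15 and 1.09 ± 0.07). Il7r, the receptor of a survival cytokine, was lower with 84.9, 79.3 and 73.1 with pyruvate against 103, 93.5 and 92.9 with lactate (-0.28 ± 0.06), yet both were above NaCl at 61.3, 61.0 and 64.9. The follicular homing receptor Cxcr5 was at 1.81, 1.14 and 0.936 against 2.70, 2.51 and 2.56 CPM (-0.99 ± 0.23). Of the NK-type lectin receptors, 11 were measured of 22 listed and 5 (45.5%) were higher. Klrc1, the inhibitory receptor NKG2A, gave 167, 172 and 171 CPM with pyruvate, 91.0, 90.1 and 84.8 with lactate and 73.9, 72.7 and 68.4 with NaCl, and its partner Klrd1 57.4, 60.5 and 59.7 against 44.7, 42.4 and 38.4 (0.94 ± 0.04 and 0.50 ± 0.05). Reads of Klrc1 and its near copy Klrc2 may not be fully told apart. Of 19 T lineage genes, 4 (21.1%) were higher and 5 (26.3%) lower. Cd2, an adhesion receptor, gave 147, 156 and 153 against 229.5, 233 and 214 CPM (-0.57 ± 0.06) and Cd8b1 178, 173 and 179 against 221, 224 and 215 (-0.32 ± 0.04).

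The list with the largest share of higher members was that of p53 targets, genes that the tumour suppressor p53 switches on after damage or stress. With pyruvate 19 of 26 (73.1%) were higher and 0 lower, and the median log2 fold change was 0.29 beside 0.00 over all genes. Cdkn1a, the cell cycle inhibitor p21, gave 257, 263 and 262 CPM with pyruvate, 185, 179 and 177 with lactate and 219, 229 and 211 with NaCl (log2 fold change 0.53 ± 0.05, adjusted p = 1.04e-06). Pyruvate was above NaCl (0.25) and lactate below it (-0.28). Perp, a membrane protein of apoptosis, gave 92.9, 93.5 and 94.8 against 53.2, 53.9 and 55.0 CPM (0.79 ± 0.07), Ccng1, cyclin G1, 501, 509 and 510.5 against 339, 373 and 342 (0.53 ± 0.07) and the kinase Plk2 203, 224 and 219 against 159.6, 157 and 151 (0.46 ± 0.04). Phlda3, an inhibitor of AKT, stood at 27.0, 23.6 and 22.1 with pyruvate, 26.0, 25.1 and 21.7 with NaCl and 15.7, 13.9 and 17.7 with lactate. Here pyruvate and NaCl overlapped and lactate was lowest (0.62 ± 0.12). Against NaCl 11 of the 26 were higher with pyruvate and 8 lower with lactate, beside 9.40% and 4.12% of all genes. The medians against NaCl were 0.12 and -0.18.

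Among interferon-induced genes, most called GTPase and antigen processing genes were higher with pyruvate and most called type I genes were lower. Interferon-gamma induces GTPases that attack intracellular vacuoles and the machinery of antigen processing. Type I interferon induces antiviral sensors and effectors. Of 27 measured GTPase and antigen processing genes, 19 (70.4%) were higher and 1 lower with pyruvate, while of 33 measured type I genes 2 (6.06%) were higher, 9 (27.3%) lower and 22 not called. The difference between the lists was not tested. The median log2 fold changes were 0.29 and -0.25. Gbp2, a guanylate-binding protein, gave 332, 314 and 312 CPM with pyruvate, 168, 167 and 154 with lactate and 259, 249 and 252 with NaCl (log2 fold change 0.97 ± 0.04, adjusted p = 6.15e-11). Iigp1, an immunity-related GTPase, gave 88.1, 81.3 and 81.8 with pyruvate, 47.7, 51.6 and 48.3 with lactate and 78.6, 95.9 and 89.0 with NaCl (0.77 ± 0.08). The lactate libraries were the lowest of the 9 for both. Against NaCl the log2 change of Iigp1 was -0.07 with pyruvate and -0.83 with lactate. Gbp5 and Gbp4 gave 178, 167 and 162 against 112, 106 and 98.8 and 118, 106 and 100.4 against 73.4, 74.6 and 70.9 CPM (0.68 ± 0.04 and 0.57 ± 0.05), and Tgtp2 84.5, 71.8 and 77.0 against 47.2, 50.2 and 47.7 (0.69 ± 0.06). These are families of close copies, whose reads the counting may have shared. Of this list 16 members were lower with lactate than with NaCl and 0 higher, beside 4.12% and 3.61% of all genes. Pyruvate against NaCl had 6 higher and 2 lower, beside 9.40% and 6.28%.

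In the type I list the largest fall was of Oasl1, an inhibitor of interferon production, at 0.0287, 0.253 and 0.139 CPM with pyruvate against 1.40, 0.627 and 0.584 with lactate (log2 fold change -2.53 ± 0.60, adjusted p = 0.00539), with 1 pyruvate library below 3 counts. Usp18, which removes ISG15 and restrains the receptor, was at 1.41, 0.785 and 0.728 against 2.77, 1.88 and 1.83 (-1.13 ± 0.28). Ifi27l2a gave 13.3, 9.82 and 10.2 with pyruvate, 18.7, 20.3 and 16.7 with lactate and 17.4, 21.5 and 25.8 with NaCl (-0.74 ± 0.13, adjusted p = 0.000505). Irf7, the factor that amplifies the response, gave 2.04, 1.59 and 1.49 against 3.54, 2.97 and 2.56 CPM (-0.81 ± 0.22), a call lost without pyruvate replicate 2 or lactate replicate 1 (adjusted p up to 0.0506). Against NaCl 17 of the 33 were lower with pyruvate and 5 with lactate, beside 6.28% and 4.12% of all genes. Without pyruvate replicate 1, lactate replicate 1 or lactate replicate 3, a single member of the list was higher with pyruvate in place of 2, and without the filter on low counts 4 were.

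The interferon-stimulated response element has a core of GAAA, any 2 bases and GAAA again. On either strand it occurred in 9 of the 14 GTPase and antigen processing genes that rose and have a promoter window. Of all measured members of that list with a window, 10 of 19 held it. It occurred in 3 of the 6 type I genes that fell and have a window, and in 12 of 24 measured type I members. Of all windows 3.44% held it, a share of windows and not of genes, which can have several. The stretches around the core in the 9 rising genes are shown to let their likeness be seen, each read on the strand that carries it, with the core in capitals and the nearer match alone where 2 overlap. They are named for holding the core, a choice made after their values were seen.
Gbp2, chr3:142620594-142620623, minus strand: ttaagacagtGAAAGTGAAActaaaagagt
Gbp3, chr3:142559995-142560024, minus strand: agggatctggGAAATAGAAActgaaactgt
Gbp5, chr3:142496759-142496788, minus strand: tctctaaactGAAATTGAAActacacaagt
Gbp7, chr3:142530273-142530302, minus strand: atggagaactGAAACTGAAActgcacacac
Igtp, chr11:58199512-58199541, plus strand: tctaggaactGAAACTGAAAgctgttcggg
Irgm1, chr11:48871425-48871454, minus strand: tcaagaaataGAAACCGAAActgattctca
Irgm2, chr11:58214903-58214932, plus strand: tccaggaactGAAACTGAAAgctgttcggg
Tgtp1, chr11:48992304-48992333, minus strand: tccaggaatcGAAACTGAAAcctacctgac
Tgtp2, chr11:49064263-49064292, minus strand: tccaggaatcGAAACCGAAAcctactctga
The cores shown for Gbp7, Igtp, Irgm2 and Tgtp1 are identical, as are those for Irgm1 and Tgtp2. The searched core thus lay in promoter windows of genes that rose and of genes that fell.

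Genes of the hypoxia response, glycolysis and osmotic stress also leaned upward. Of 33 measured HIF targets 17 (51.5%) were higher and 1 lower with pyruvate. The lower one was Hif1a itself, the oxygen-regulated subunit of the factor, with 483, 497 and 473 CPM against 549, 564 and 517 (log2 fold change -0.16 ± 0.04). The glucose transporters Slc2a1 and Slc2a3 gave 168, 182 and 168 against 138, 122 and 129.6 and 184, 203 and 176 against 158, 139.5 and 135 (0.41 ± 0.06 and 0.38 ± 0.09). P4ha1, a collagen prolyl hydroxylase, gave 152, 161 and 151 against 115, 115 and 111 (0.44 ± 0.05). Vegfa, a textbook target, did not separate the salts (log2 difference -0.03, 95% interval -0.22 to 0.15). Of 29 genes of glycolysis and the pentose phosphate pathway 10 (34.5%) were higher and 1 lower, by small steps: Aldoa, aldolase, gave 1278, 1278 and 1316 against 1153, 1088 and 1095 (0.21 ± 0.04). The 1 lower gene was not called without pyruvate replicate 2, lactate replicate 1 or lactate replicate 3, and 2 were without lactate replicate 2, with upper quartile scaling, without the filter on low counts and with the 6 libraries alone.

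Of 17 genes of osmotic stress 8 (47.1%) were higher and 0 lower with pyruvate, beside 13.0% and 10.9% of all genes tested. Against NaCl 3 were higher and 1 lower with pyruvate, beside 9.40% and 6.28% of all genes. With lactate 0 were higher and 4 lower, beside 3.61% and 4.12%. The salts were given at equal concentration, and the cause of the difference was not tested. Hspa4l, a chaperone of hyperosmotic cells, gave 107, 117 and 106 CPM against 73.7, 79.4 and 74.3 (log2 fold change 0.53 ± 0.04, adjusted p = 1.75e-07). The kinase Sgk1 gave 7.97, 7.42 and 8.73 against 5.15, 4.66 and 5.56 (0.65 ± 0.12), while the inositol and taurine carriers Slc5a3 and Slc6a6 moved by 0.18 and 0.13. Without pyruvate replicate 2 a single member was lower. Of 25 galectins, annexins and S100 genes with their cytoskeletal companions, 12 (48.0%) were higher and 4 (16.0%) lower. Anxa2, a membrane-binding annexin, gave 242, 260.1 and 255 against 185, 173 and 161 (0.55 ± 0.05), vimentin (Vim) 718, 729.9 and 727 against 544, 474 and 513 (0.51 ± 0.06), and the actin-capping Capg 171, 169 and 174 against 122, 116 and 124 (0.50 ± 0.04).

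Lists of translation and growth had more members lower than higher with pyruvate. All 20 aminoacyl-tRNA synthetase genes had a negative log2 fold change and 10 (50.0%) were called lower, 0 higher, with a median of -0.15. Cars, the cysteine enzyme, gave 133, 136 and 138 CPM with pyruvate, 169, 167 and 166 with lactate and 145, 148 and 153 with NaCl (-0.31 ± 0.06, adjusted p = 0.00077). Vars gave 287, 268 and 275 against 349, 319 and 344 (-0.29 ± 0.04) and Farsb 139.7, 134 and 137 against 161, 167 and 165 (-0.27 ± 0.03). For all 20 the 95% interval lay within a 1.5-fold change. Against NaCl 3 were lower with pyruvate and 3 higher with lactate, beside 6.28% and 3.61% of all genes.

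The synthetases are in part targets of ATF4, the factor of the integrated stress response. In that list 11 of 40 (27.5%) were lower and 4 (10.0%) higher. Pck2, the mitochondrial phosphoenolpyruvate carboxykinase, gave 55.5, 56.9 and 57.3 CPM with pyruvate against 91.7, 77.7 and 86.6 with lactate (log2 fold change -0.59 ± 0.11, adjusted p = 0.00077), and Pycr1, an enzyme of proline synthesis, 3.81, 4.99 and 4.75 against 8.20, 6.79 and 6.37 (-0.65 ± 0.14). Vldlr, a lipoprotein receptor, was higher (8.52, 10.0 and 9.15 against 6.06, 5.37 and 4.90 CPM, 0.78 ± 0.18). The number lower rose to 18 with the 6 libraries alone and to 20 without the filter on low counts, and 2 were higher without pyruvate replicate 2, pyruvate replicate 3 or lactate replicate 3. In ribosome biogenesis and the MYC network 13 of 35 (37.1%) were lower and 4 (11.4%) higher. Nop56 and Ncl, nucleolar proteins, gave 481, 497 and 517 against 584, 641 and 607 and 2878, 3180.1 and 3036 against 3419, 3963 and 3497 (-0.29 ± 0.04 and -0.26 ± 0.06), and Mxd4, an antagonist of MYC, rose with 19.2, 15.9 and 16.8 against 12.1, 12.5 and 11.0 (0.55 ± 0.10). Myc itself gave 489, 512 and 511 against 553, 565 and 522, with an adjusted p of 0.0572 and a 95% interval of -0.21 to -0.03. It passed the threshold with upper quartile scaling (0.0332), without the filter on low counts (0.0274), with the 6 libraries alone (0.042), in the DESeq2 Wald test (0.0326) and without lactate replicate 3 (0.0372). Without pyruvate replicate 1, 8 genes of this list were lower in place of 13.

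Of 28 genes of mitosis 12 (42.9%) were lower, 1 was higher and 15 were not called, and for all 28 the 95% interval lay within a 1.5-fold change. Aurka, a spindle kinase, gave 68.3, 71.5 and 72.6 CPM against 82.6, 83.2 and 81.3 (log2 fold change -0.22 ± 0.04, adjusted p = 0.000933) and Plk1 108, 115 and 123 against 135, 133 and 130.3 (-0.20 ± 0.04). Mki67, the proliferation marker, gave 1070.0, 1097 and 1006 against 1257, 1226 and 1078 (-0.17 ± 0.06), a call lost without pyruvate replicate 1 or 3 or lactate replicate 1 or 2 (adjusted p up to 0.178). In DNA replication 8 of 38 (21.1%) were lower and 1 higher, and all 38 lay within a 1.5-fold change. Over all genes tested 10.9% were lower. Without pyruvate replicate 2, 5 were lower, and 0 were higher when any 1 library was left out, with DESeq2 size factors, with upper quartile scaling, without the filter on low counts and with the 6 libraries alone. Among 22 enzymes of the tricarboxylic acid cycle 7 (31.8%) were lower and 1 higher, the latter being Pcx, and 2 were higher without pyruvate replicate 1. Idh2 and Suclg2 gave 26.7, 27.0 and 27.3 against 33.8, 32.2 and 31.3 and 51.5, 50.9 and 50.2 against 60.3, 62.1 and 62.2 (-0.26 ± 0.05 and -0.27 ± 0.04).

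Of 35 nuclear-encoded respiratory chain genes 5 (14.3%) were lower, near the 10.9% of all genes tested, and 0 higher. The count was 2 without pyruvate replicate 2, 3 without lactate replicate 1 or lactate replicate 3, and 9 with upper quartile scaling. Of 15 mitochondrially encoded genes 3 (20.0%) were lower: mt-Rnr2, mt-Rnr1, with 579, 729 and 572 CPM with pyruvate against 947, 1204 and 909.5 with lactate, and mt-Nd6, whose call was lost in the DESeq2 Wald test (0.091) and without pyruvate replicate 1, 2 or 3 or lactate replicate 2 or 3 (adjusted p up to 0.207). The library kit does not mark strand, so reads of mt-Nd6 cannot be told apart from those of the opposite strand. The count rose under other settings, to 5 without lactate replicate 1, 6 with upper quartile scaling, 6 with the 6 libraries alone and 9 without the filter on low counts.

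In lipid synthesis a few genes carried the change. Of 22 genes of fatty acid synthesis 4 (18.2%) were lower and 1 higher, or 2 higher without the filter on low counts. Beside Elovl6 and Scd1, the desaturases Fads2 and Scd2 gave 38.2, 41.1 and 42.1 against 66.1, 51.3 and 53.5 and 909, 1009 and 936 against 1331, 1125 and 1124 CPM (log2 fold changes -0.49 ± 0.10 and -0.33 ± 0.07). Of 31 genes of cholesterol synthesis, uptake and efflux 7 (22.6%) were lower. Beside both lists, 10.9% of all genes tested were lower. Fdft1, squalene synthase, gave 66.5, 63.9 and 62.4 against 81.6, 81.3 and 81.9 (-0.34 ± 0.05, adjusted p = 4.55e-05), and Fdps 129.9, 118 and 122 against 163, 149 and 144 (-0.30 ± 0.05). The single higher member was Idi2, an isopentenyl diphosphate isomerase, at 11.6, 12.6 and 14.6 CPM with pyruvate, 7.29, 6.15 and 5.86 with NaCl and 3.75, 3.68 and 2.97 with lactate, with no overlap between groups (1.90 ± 0.15, adjusted p = 1.12e-07), and a second passed without lactate replicate 1. The sterol response element TCACNCCAC occurred in none (0 of 6) of the genes of these lists that fell and have a promoter window, and in 1.24% of all windows. Among all measured members with a window it was in 0 of 19 fatty acid synthesis genes and 1 of 21 cholesterol genes. A string this rare would be missing from most sets of 6 genes, so its absence cannot tell whether sterols regulate them. Acss2, which makes acetyl-CoA from acetate, was also lower (9.38, 7.57 and 8.08 against 12.8, 10.7 and 12.9 CPM, -0.54 ± 0.10, adjusted p = 0.00103).

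The metallothioneins Mt1 and Mt2, zinc-binding proteins, were lower with pyruvate. Mt2 gave 9.78, 9.72 and 9.29 CPM with pyruvate, 13.6, 14.5 and 12.6 with lactate and 10.3, 10.1 and 9.87 with NaCl (log2 fold change -0.49 ± 0.08, adjusted p = 0.00043), so that lactate alone stood above the others. Mt1 gave 12.3, 12.4 and 11.6 against 19.7, 13.9 and 15.3 (-0.42 ± 0.11), a call lost without lactate replicate 1 (adjusted p up to 0.0739). The zinc importer Slc39a10 was the single higher member of the 12 measured (157, 170.2 and 172 against 146, 145 and 140.2 CPM, 0.21 ± 0.04), and 2 were higher with the 6 libraries alone and without pyruvate replicate 1 or lactate replicate 1. Without lactate replicate 1 a single member was lower.

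In several lists the members went both ways. Their shares are to be read beside the 13.0% higher and 10.9% lower of all genes tested. Of 21 genes of the IL-2 and STAT5 response 4 (19%) were higher and 4 (19%) lower. Of 32 histone acetylation and deacetylation genes 5 (15.6%) were higher and 6 (18.8%) lower. Of 35 lysosomal genes 7 (20%) were higher and 8 (22.9%) lower, the latter 4 without pyruvate replicate 1 and 5 without pyruvate replicate 3. Of 32 heat shock and unfolded protein genes 7 (21.9%) were higher and 2 (6.25%) lower, and for all 32 the interval lay within a 1.5-fold change. The 7 became 2 without pyruvate replicate 2 or 3 and 3 without lactate replicate 1 or 3, and the 2 became 1 without pyruvate replicate 2 or 3 or any of the lactate replicates. Of 29 genes of fatty acid uptake and oxidation 4 (13.8%) were higher and 6 (20.7%) lower. The 4 became 2 without pyruvate replicate 2 or 3 or lactate replicate 1 or 2, and 1 without lactate replicate 3.

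The NaCl libraries place these differences. Over all genes tested 1387 (9.40%) were higher and 926 (6.28%) lower with pyruvate than with NaCl, and 532 (3.61%) higher and 608 (4.12%) lower with lactate. Both comparisons use the same NaCl libraries. Spp1, Havcr2, Csf2, Srxn1, Nqo1 and Ccl3 had log2 changes against NaCl of 1.93, 3.81, 1.44, 2.43, 2.33 and 1.08 with pyruvate and of 0.02, 0.13, 0.07, -0.32, -0.10 and 0.08 with lactate, none of the latter called. For Zbtb7b, mt-Rnr2 and Mt2 it was lactate that differed, with 0.69, 0.66 and 0.42 against -0.03, -0.08 and -0.07 with pyruvate. Penk, Idi2, Inhba, Ccl1, Arc and Cdkn1a differed from NaCl on both sides, higher with pyruvate and lower with lactate: Penk changed by 0.87 and -0.88, Idi2 by 1.00 and -0.91, and Arc by 0.87 and -0.64.

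**Figure D4:**
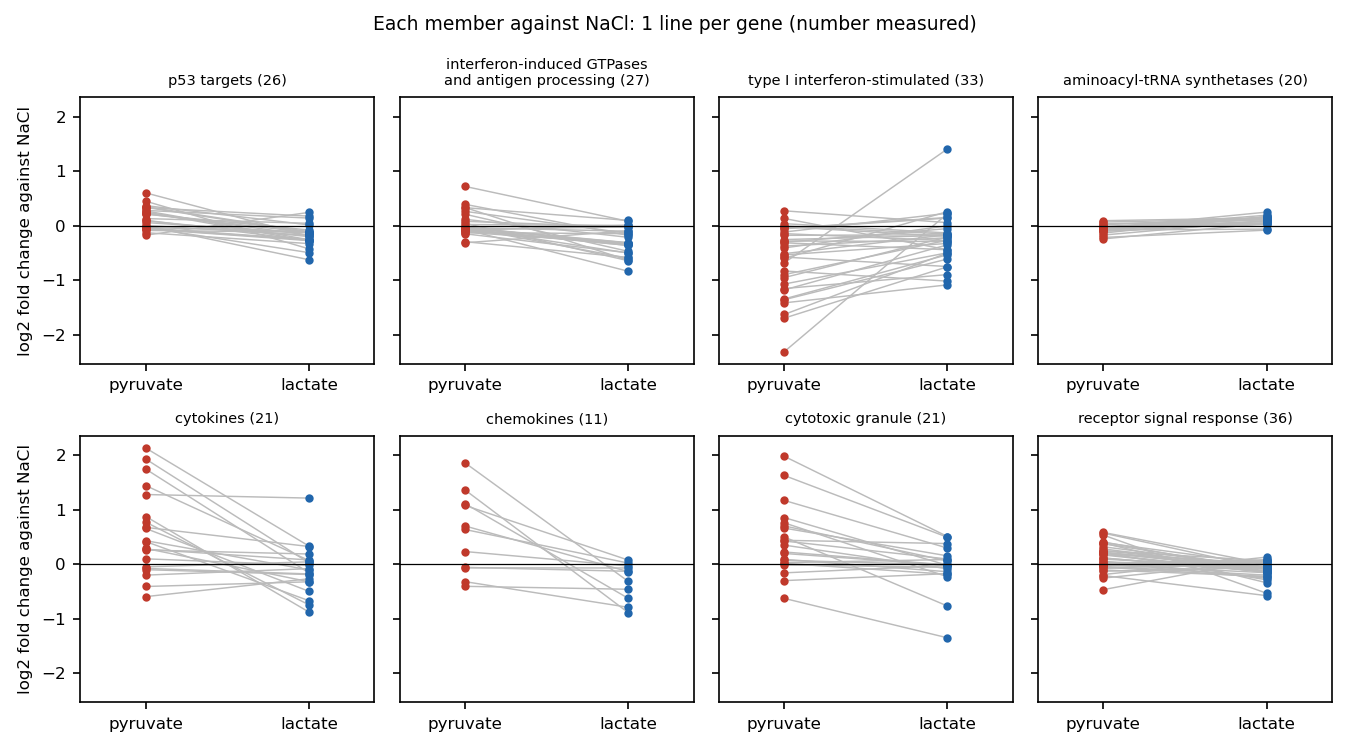
Log2 fold change against NaCl of each measured member of 8 gene lists with pyruvate (red) and with lactate (blue), 1 line per gene, the NaCl libraries being shared by both. Members of the p53 list lie mostly above 0 with pyruvate and below 0 with lactate, those of the GTPase list lie mostly below 0 with lactate (median -0.32), and those of the type I interferon list have medians of -0.51 with pyruvate and -0.22 with lactate.

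**Figure D5:**
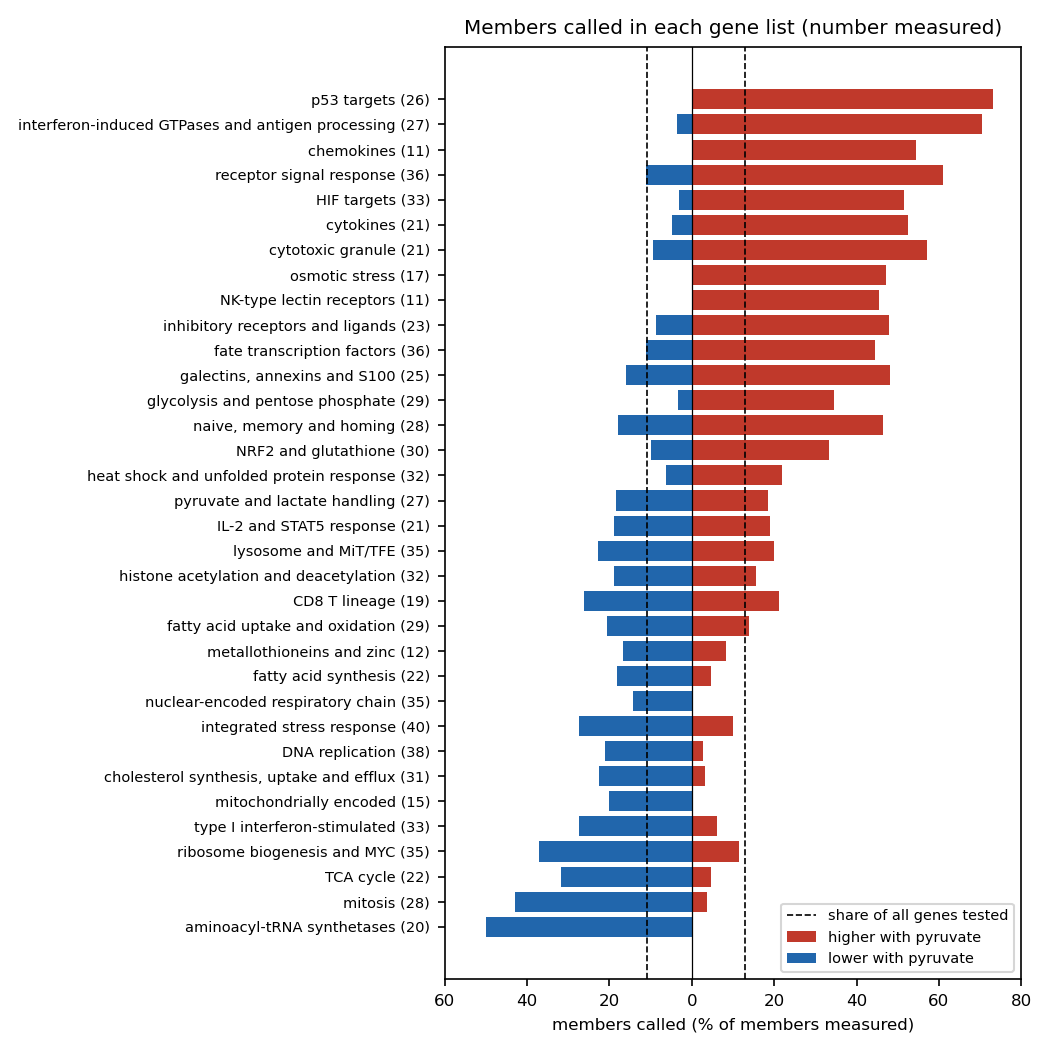
Share of the measured members of 34 gene lists called higher (red, to the right) and lower (blue, to the left) with pyruvate than with lactate, with dashed lines at the share of all genes tested, 13.0% and 10.9%. The p53 targets (73.1% higher) and the aminoacyl-tRNA synthetases (50.0% lower) mark the ends.

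Chromatin accessibility, measured by ATAC-seq in 3 libraries per group, gave another readout of the same comparison. Over all 75802 peaks 8804 (11.6%) differed, 5184 higher and 3620 lower with pyruvate, and of 692 peaks inside or within 1 kb of the 223 named genes with coordinates 118 did, 85 higher and 33 lower. The number called at these genes fell to 63 without pyruvate replicate 1, 58 without pyruvate replicate 2, 63 without lactate replicate 2 and 50 without lactate replicate 3. The median log2 change of the 386 peaks at genes whose RNA was higher was -0.01, of the 285 at genes whose RNA was lower 0.04, and of all peaks -0.03. Havcr2 had 5 peaks and none was called. The peak over its first annotated base (chr11:46454611-46455092) gave 14.5, 15.1 and 14.6 CPM with pyruvate against 13.8, 13.2 and 14.2 with lactate (log2 change 0.10 ± 0.11, adjusted p = 0.603). The peak over the Srxn1 promoter (chr2:152104815-152105888) gave 46.4, 46.5 and 42.5 against 41.5, 35.7 and 40.2 CPM (0.20 ± 0.09, adjusted p = 0.134), and that over the Gbp2 promoter 54.4, 58.4 and 54.1 against 55.7, 57.0 and 57.3 (-0.03 ± 0.09).

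At a few genes a peak rose with the RNA. The peak over one end of Csf2 (chr11:54249083-54249966) gave 27.7, 26.2 and 23.8 CPM with pyruvate against 18.7, 16.5 and 15.2 with lactate (log2 change 0.63 ± 0.10, adjusted p = 0.000109). Inside Cdkn1a the peak at chr17:29094850-29095797 gave 43.9, 45.6 and 43.9 against 33.3, 29.3 and 30.7 (0.52 ± 0.09), and all 3 peaks listed at Arc were higher (0.33 to 0.66). At Tnf, whose RNA differed by 0.20 on the log2 scale, the peak at chr17:35201905-35202364 gave 34.3, 34.3 and 30.7 against 23.2, 18.1 and 16.7 CPM (0.78 ± 0.11, adjusted p = 2.74e-05). At other genes the readouts went opposite ways. Scd1, lower in RNA, had a higher peak at chr19:44407400-44408604 (20.8, 20.5 and 22.1 against 14.3, 14.3 and 14.9 CPM, 0.54 ± 0.10), Tcf7 had peaks higher by 0.65 and 0.50, and Ifng, higher in RNA, had an inner peak lower by 0.41 on the log2 scale.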

How the data were processed

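RNA was measured in 12 libraries and chromatin accessibility by ATAC-seq in the other 12. The deposited RNA values are expected counts per gene, which the authors made with RSEM 1.2.12 and Bowtie2 2.2.0 on mm10, per the submitters' processing notes, from poly(A)-selected libraries. Of the nonzero values 99.24% were whole (tolerance 1e-09), and the adjustment in the deposited counts is not given in the sources used here. The deposited ATAC values are raw counts per peak, and the notes name BWA, Picard, MACS2 and bedtools. Expected counts were rounded, genes filtered with filterByExpr, libraries scaled by TMM, and all 12 RNA libraries fitted without a replicate block by the quasi-likelihood test of edgeR 4.0.16 (R 4.3.3), with Benjamini-Hochberg adjustment over 14749 genes and a threshold of 0.05. CPM use TMM-scaled totals, each SE came from the fold change and its F statistic, and intervals are 95%. ATAC peaks were fitted in the same way. DESeq2 1.42.0 was an alternative. Tested on simulated data for pyruvate against lactate (14439 genes), the fit recovered 34% of 1.25-fold, 66% of 1.5-fold, 74% of 2-fold and 92% of 4-fold changes, with 4 false among 137 calls. The simulation changed 50 genes at each fold, a much smaller share than the 24.0% called in the data. Its rates therefore need not hold for these data. Genes named were the 12 highest and the 12 lowest called genes whose log2 CPM averaged 3 or more, with non-overlapping groups and no predicted name, up to 6 called members of each list with the largest change, and a set named whatever its result. The members and lists were chosen with earlier results of these data known.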

Additional observations from a re-analysis of the deposited data

How the results depend on the processing

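The number of genes called (3534) was 3541 with DESeq2 size factors, 3625 with upper quartile scaling (1748 higher and 1877 lower), 3718 without the filter on low counts, 3612 with the 6 libraries alone and 3413 in the DESeq2 Wald test, which shared 3292. Leaving out 1 library gave 2547 to 2940 (1447 to 1653 higher, 1100 to 1287 lower). An adjusted p under 0.01 left 1991 (1191 higher, 800 lower) and a test against a 1.2-fold change 558 (429 higher, 129 lower). Genes within a 1.5-fold margin numbered 9645 to 10114 over the alternatives. Same-numbered pyruvate and lactate libraries did not deviate together (correlations -0.105, -0.137 and -0.135, against 0.0374 to 0.1 for other numbers). The deposited counts appear adjusted for the replicate number, which would remove shared deviations, so these correlations cannot show whether the replicates were paired. With the replicate number as a block 2879 genes were called (1620 higher, 1259 lower), 2868 of them shared. Named genes whose call the block ended included Tnf (adjusted p = 0.0744), Mki67 (0.0597) and Mpc2 (0.0512), and it left 2 genes of fatty acid uptake and oxidation higher in place of 4, and 0 higher in DNA replication and 0 lower in glycolysis in place of 1 each. The block with the 6 libraries alone, chosen after seeing the data, gave 3544. ATAC peaks called at named genes ranged from 50 to 109 when 1 library was left out and were 138 with the block. The longer antioxidant response element, with an added A, was in 1 promoter window of the rising NRF2 genes in place of 4. The cause of these shifts was not tested. At this depth 3751 uncalled genes had intervals reaching 1.5-fold.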
